A study of Mus musculus with 20 samples.

Results

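The 7 genes described here mark the thick ascending limb and the distal convoluted tubule of the kidney: Umod, Slc12a1, Kcnj1 and Bsnd for the thick limb, and Slc12a3, Trpm6 and Pvalb for the distal tubule. They were taken by name, 7 of the 27827 gene names on the array, read by 9 of its 41174 probes. Total RNA of whole kidneys from C57BL/6 mice, males of 8 to 12 weeks per the methods, was measured on 20 arrays of a single dye, 4 in each of 5 groups. Control kidneys came from mice with neither surgery nor drug, and the labels describe no sham operation. In IRI both renal pedicles were clamped for 45 min and the kidneys were taken after 6 h of reperfusion. IRI+Hemin had the same injury after 25 mg/kg of Hemin, an inducer of heme oxygenase 1, injected 24 h before surgery, and Hemin mice received the drug alone. IPC+IRI mice had their pedicles clamped for 15 min 7 days before the same injury (ischemic preconditioning). The labels number the 4 samples of a group without naming the animals, so p-values measure the spread between these samples.

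The thick ascending limb takes up sodium, potassium and chloride without water, and it makes uromodulin, the most abundant protein of normal urine. The apical cotransporter NKCC2 (Slc12a1) carries the salt in, the potassium channel ROMK (Kcnj1) returns potassium to the lumen, and chloride leaves through basolateral channels that need barttin (Bsnd). Downstream, the distal convoluted tubule takes up salt through the thiazide-sensitive cotransporter NCC (Slc12a3) and magnesium through the channel TRPM6, and its early part holds the calcium buffer parvalbumin (Pvalb). Kcnj1 and Bsnd are also made further along the nephron, so neither marks the thick limb alone.

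The first 30 of the 60 bases of each probe are shown because every value below is the brightness of these probes. Positions (mm9, from the annotation of the array) cover the whole probe, and whether a probe lies in a coding or an untranslated part of its gene was not analysed here.
Umod, A_52_P312806, chr7:126606529-126606588, strand -: aaacaagttggcatctttcagtgctgttct
Slc12a1, A_52_P26118, chr2:125055224-125055283, strand +: ctgctagctggaggtatattaggtaggtga
Slc12a1, A_51_P442227, chr2:125021044-125021103, strand +: ggagaccaactaaaagtgataaatattctt
Kcnj1, A_52_P499907, chr9:32206612-32206671, strand +: gcaggagaatttacttcggaggaaggttct
Bsnd, A_51_P197499, chr4:106157257-106157316, strand -: aaccccatgtccactgtgttttggtcctct
Slc12a3, A_51_P445985, chr8:96875636-96875695, strand +: gcaggctagcaccatcttccagtcggagca
Trpm6, A_52_P184322, chr19:18952126-18952185, strand +: aggggagttccggaaatacaataacaacaa
Trpm6, A_51_P243073, chr19:18898061-18898120, strand +: tttcatcacattttagcaatttcacttaaa
Pvalb, A_51_P500156, chr15:78021647-78021706, strand -: gtgatggatcgtccatcttaaagatacaga

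Promoter windows from RefSeq (GRCm38.p6) were found for 6 of the 7 genes, Bsnd being the other. Each was searched on both strands of the 250 bases before the start for AGGTCA (a nuclear receptor site) and TATAAA, and the motifs were chosen after the sequences had been looked at. A match is a description, and no match says only that these letters are not in the window. TATAAA occurred in Slc12a3 alone, from 32 bases before the start, and AGGTCA in none of the 6. Of 32841 windows of the same length, 14.03% held AGGTCA and 12.37% TATAAA. The window with a match is shown with the match in capitals.
Slc12a3, chr8:94328958-94329207, strand +: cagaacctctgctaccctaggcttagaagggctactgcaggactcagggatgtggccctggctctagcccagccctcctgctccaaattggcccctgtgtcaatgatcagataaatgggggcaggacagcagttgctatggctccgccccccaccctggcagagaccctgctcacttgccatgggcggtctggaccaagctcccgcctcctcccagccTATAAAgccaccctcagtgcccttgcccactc

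Values are log2 expression: the log2 of a gene's signal over the 75th percentile of its array, so that 0 lies at that percentile. All 7 genes were well above background, a mark set by the scanner software, on all 20 arrays, and all passed the filter on dim genes. No slide held arrays of more than 1 group, and slide and group cannot be told apart. Of the 6 pairs of groups compared, IRI vs Control alone was scanned within a day: IRI+Hemin had a day to itself, and Hemin shared another with IPC+IRI. The 75th percentile of the arrays ran from 147 to 221 units in Control, 256 to 323 in Hemin, 162 to 281 in IRI, 222 to 304 in IPC+IRI and 174 to 358 in IRI+Hemin. Rn18s, a ribosomal RNA, had a log2 expression of 5.60 ± 1.45 in Control, 7.49 ± 0.090 in Hemin, 4.93 ± 1.25 in IRI, 7.65 ± 0.28 in IPC+IRI and 7.51 ± 0.19 in IRI+Hemin (SD, n = 4), and its part in the results below was not tested. The log2 fold changes of 8 common reference genes ran from -0.094 to 0.30 in IRI vs Control and from -1.02 to 1.27 in IPC+IRI vs Control. They ran from -1.19 to 1.04 in IPC+IRI vs IRI, from -1.01 to 0.94 in IRI+Hemin vs IRI and from -0.72 to 0.97 in Hemin vs Control, and the called changes of Bsnd and Slc12a3 in IPC+IRI vs Control, Bsnd in IPC+IRI vs IRI, Kcnj1 and Bsnd in IRI+Hemin vs IRI and Trpm6 in Hemin vs Control lie within these ranges.

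After 6 h of reperfusion the 7 genes did not move as a block. Kcnj1 and Bsnd, a potassium channel and a chloride channel subunit, were about 3-fold lower in IRI than in Control, Trpm6 was higher, and Umod, Slc12a1, Slc12a3 and Pvalb did not pass the test. Both preconditioning and Hemin before the injury went with higher Kcnj1 and Bsnd than in injury alone, while IRI+Hemin kidneys had less Pvalb and Trpm6 than IRI kidneys. The Hemin step of Kcnj1 and Bsnd was less firm: both calls were lost without IRI+Hemin replicate 4 (0.63 and 0.47), and normexp background correction, one of the alternatives, removed the Bsnd call in both steps (0.14). IRI+Hemin replicate 4 had the lowest 75th percentile of its group, 174 units (the others 251 to 358), and the fewest genes above background (60.1%). Its unscaled signals lay within the range of the others: 8402 units for Kcnj1 (4362 to 8843) and 86.1 for Bsnd (74.4 to 113.7). The part of the scaling in these steps was not tested. The rise of Trpm6 in IRI lost its call in 3 of 19 alternatives, with 0.14 in the deposited matrix. Calls here rest on limma over all genes tested, with a Benjamini-Hochberg adjusted p below 0.05 and no fold cutoff. Whole kidneys were measured, so fewer cells of a type and less RNA per cell cannot be told apart.

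**Figure D1:**
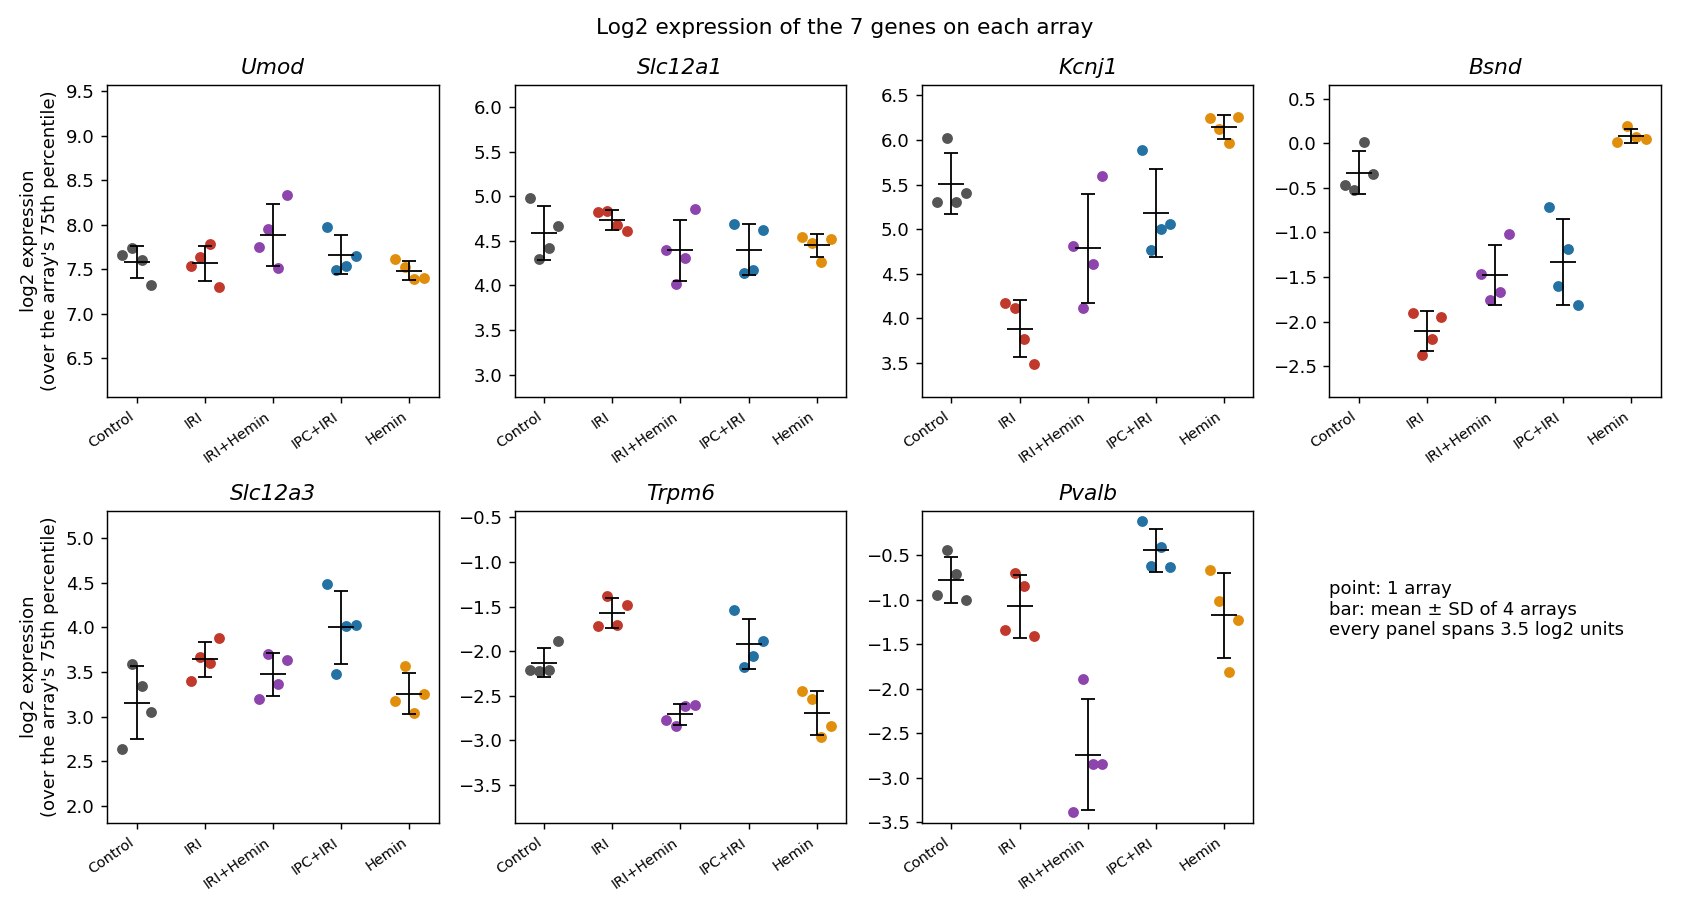
Log2 expression of the 7 genes (y axis, over the 75th percentile of the array) on each of the 4 arrays of the 5 groups (x axis), with the mean and SD as a bar and every panel at the same span. The means of Kcnj1 and Bsnd are lowest in IRI and highest in Hemin, that of Pvalb is lowest in IRI+Hemin, and the Umod arrays overlap between all groups.

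In IRI vs Control, 2 of the 7 genes were called lower and 1 higher, where 33.9% of the 17711 genes tested were called lower and 17.1% higher. The median log2 fold change was -0.014 over the 7 genes and -0.17 over all genes tested. In IPC+IRI vs Control, 1 was lower and 1 higher, against 32.7% and 23.3% of all genes. IPC+IRI vs IRI had 2 genes higher (26.3% of all genes) and no gene lower, a direction in which 17.8% of all genes were called and 1 of the 7 had an unadjusted limma p below 0.05. In IRI+Hemin vs IRI, 2 were lower and 2 higher, beside 18.1% and 26.3% of all genes. Hemin vs Control had 1 gene lower (17.6% of all genes) and none higher, where 18.5% of all genes were called and 1 of the 7 had an unadjusted limma p below 0.05. In IRI+Hemin vs Hemin, 3 were lower and 1 higher, against 27.9% and 16.5%. The interaction, which sets the step of injury in treated kidneys against that in untreated ones, called none of the 7, with 1.96% of all genes lower and 5.83% higher, and 2 of the 7 were lower at an unadjusted limma p below 0.05. With 7 genes, such counts show nothing particular to these segments. Groups without overlap were also common over all genes: 31.3% lay wholly below and 14.8% wholly above in IRI vs Control. The shares were 27.4% and 17.7% in IPC+IRI vs Control, 15.7% and 22.2% in IPC+IRI vs IRI, and 15.5% and 23.3% in IRI+Hemin vs IRI. In Hemin vs Control they were 18.1% and 19.5%, and in IRI+Hemin vs Hemin 27.6% and 17.1%. The shares of all genes called depend on the processing. With normexp, 1397 genes were lower and 1789 higher in IRI vs Control, in place of 6003 and 3022. With no normalization, 2053 were lower and 6213 higher in IPC+IRI vs Control (6007 and 4265 in the values reported), 603 and 5908 in IPC+IRI vs IRI (3152 and 4639), 619 and 6538 in IRI+Hemin vs IRI (3231 and 4695), and 490 and 8822 in Hemin vs Control (3269 and 3440). With the percentile over probes above background everywhere, Hemin vs Control had 4302 lower and 2325 higher, and with quantile normalization the interaction had 465 and 850 (373 and 1112).

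**Figure D2:**
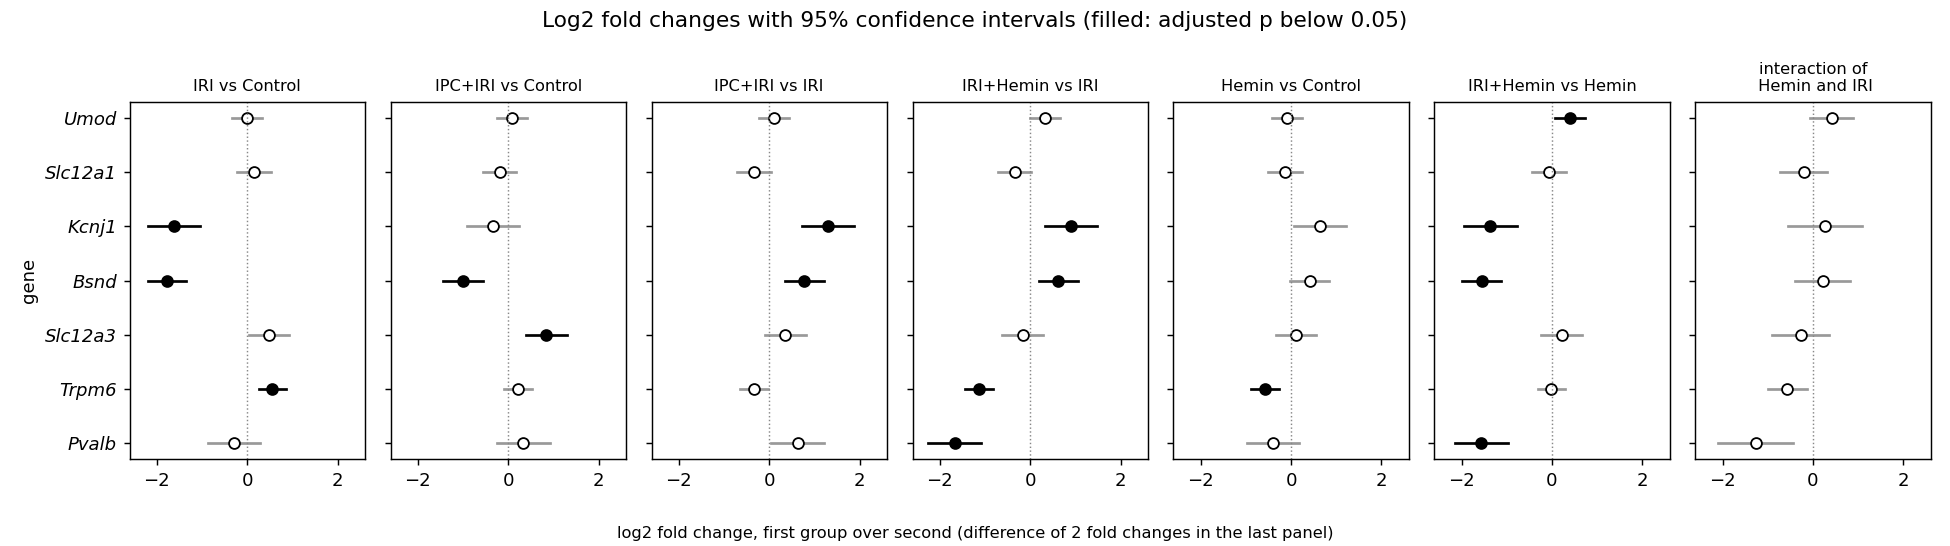
Log2 fold change (x axis) of each of the 7 genes (y axis) with its 95% confidence interval in the 6 comparisons of groups and in the interaction. Filled points passed an adjusted p of 0.05: Kcnj1 and Bsnd lie left of 0 in IRI vs Control at -1.63 and -1.77, and Pvalb (-1.67) and Trpm6 (-1.13) do so where IRI+Hemin is set against IRI.

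Kcnj1 encodes ROMK, the channel through which potassium recycles into the lumen. Over replicates 1 to 4, log2 Kcnj1 was 5.30, 6.02, 5.31 and 5.41 in Control, 6.25, 6.12, 5.96 and 6.25 in Hemin, 4.17, 4.11, 3.76 and 3.48 in IRI, 5.89, 4.76, 5.004 and 5.05 in IPC+IRI and 4.81, 4.12, 4.61 and 5.60 in IRI+Hemin. All IRI arrays lay below all Control arrays, and the IRI+Hemin arrays reached from the IRI range into the Control range. Ordered by their means, the groups ran Hemin, Control, IPC+IRI, IRI+Hemin and IRI, and the arrays of each neighbouring pair overlapped. In IRI vs Control the gene fell by 1.63 on the log2 scale (standard error 0.28, adjusted p = 1.05e-04), a 3.09-fold lower level, and the exact permutation test (two-sided) gave p = 0.029, the smallest that 4 against 4 arrays allow. In IPC+IRI it was 2.45-fold higher than in IRI, or 1.29 on the log2 scale (standard error 0.28, adjusted p = 0.00113), with no overlap of the arrays. Against Control, IPC+IRI was at -0.33 (95% interval -0.91 to 0.25, adjusted p = 0.321). In IRI+Hemin it was 0.90 above IRI (standard error 0.28, adjusted p = 0.0132), but the groups overlapped by 1 array each, and without IRI+Hemin replicate 4 the difference was 0.63 (adjusted p = 0.0535). Hemin alone stood 0.64 above Control (adjusted p = 0.0788), and passed without Control replicate 2 (0.81, adjusted p = 0.0325), with normexp (0.80, adjusted p = 0.0186), with only those groups fitted (0.64, adjusted p = 0.0187) and with no normalization (1.20, adjusted p = 5.62e-04).

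Bsnd encodes barttin, a subunit that chloride channels need at the basolateral membrane. Log2 Bsnd was -0.46, -0.53, 0.014 and -0.34 in Control, 0.011, 0.19, 0.071 and 0.049 in Hemin, -1.90, -2.38, -2.19 and -1.95 in IRI, -0.72, -1.60, -1.19 and -1.81 in IPC+IRI and -1.47, -1.76, -1.67 and -1.01 in IRI+Hemin. Every injured kidney was below every kidney of Control and Hemin, and the IRI arrays were below all others. The order of the means was that of Kcnj1, with overlap between Hemin and Control and between IPC+IRI and IRI+Hemin, and none at the other steps. It fell by 1.77 in IRI vs Control (standard error 0.21, adjusted p = 2.17e-06), by 1.00 in IPC+IRI vs Control (adjusted p = 5.15e-04) and by 1.56 in IRI+Hemin vs Hemin (adjusted p = 1.60e-05). Against IRI it was 0.77 higher in IPC+IRI (standard error 0.20, adjusted p = 0.00554) and 0.63 higher in IRI+Hemin (standard error 0.21, adjusted p = 0.0193). With normexp background correction, which adds 50 units to signals that lay between 35.5 and 72.8 units in IRI, Bsnd was at -0.84 in IRI vs Control (adjusted p = 0.00646), -0.99 in IRI+Hemin vs Hemin (adjusted p = 0.00154) and 0.14 in each of the steps above IRI (adjusted p = 0.596 and 0.582). With no normalization, IPC+IRI vs Control was -0.56 (adjusted p = 0.0737). The step in IRI+Hemin also lost its call without IRI+Hemin replicate 4 (0.47, adjusted p = 0.0730) or without IRI replicate 2 (0.53, adjusted p = 0.0614). Hemin stood 0.41 above Control (adjusted p = 0.127), and passed with only those groups fitted (adjusted p = 0.0337) and with no normalization (0.97, adjusted p = 0.00407).

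Kcnj1 and Bsnd thus had the same order of groups. Over the 20 arrays their log2 expression correlated with a Pearson r of 0.89, and with 0.51 after the group means were removed, values that describe arrays of shared slides and are given with no test. The next highest r in size over all arrays was that of Trpm6 and Pvalb, at 0.57. With the group means removed, Kcnj1 followed Umod (0.64) and Slc12a1 (0.58) more closely than Bsnd. All genes of an array are divided by the same percentile, and its part in these r was not tested.

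**Figure D3:**
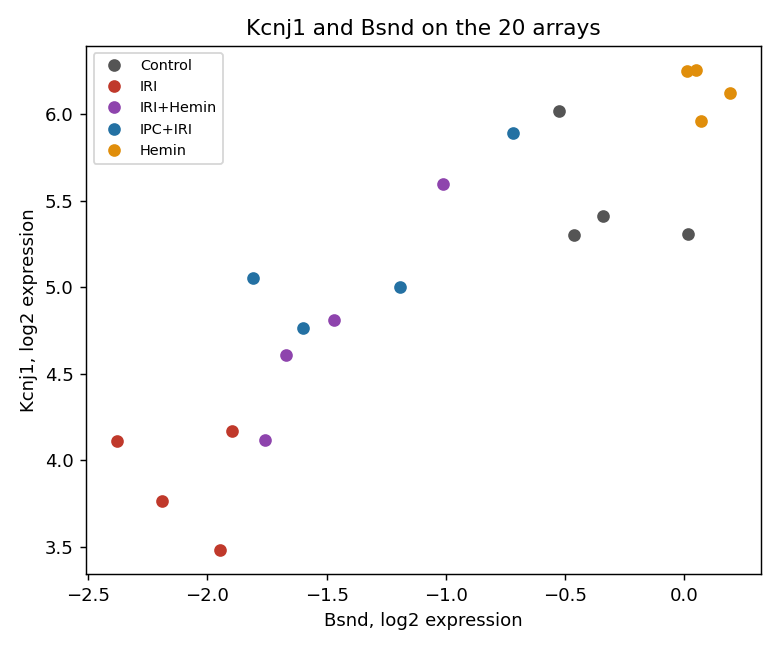
Log2 expression of Kcnj1 (y axis) against that of Bsnd (x axis), 1 point for each of the 20 arrays, coloured by group. The IRI arrays lie at the lower left and the Hemin arrays at the upper right, and r was 0.89 over all arrays.

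Umod encodes uromodulin, the protein that the thick limb secretes into urine. Log2 Umod was 7.66, 7.74, 7.60 and 7.33 in Control, 7.62, 7.53, 7.39 and 7.40 in Hemin, 7.54, 7.64, 7.78 and 7.31 in IRI, 7.98, 7.49, 7.54 and 7.66 in IPC+IRI and 7.75, 7.95, 7.52 and 8.33 in IRI+Hemin. The groups overlapped throughout, with the highest array in IRI+Hemin. In IRI vs Control the difference was -0.014 (95% interval -0.35 to 0.32, adjusted p = 0.949). A call was made in IRI+Hemin vs Hemin, at 0.40 (standard error 0.16, adjusted p = 0.0480), but it was kept in 5 of 18 alternatives. It was lost without any single Hemin array (0.37 to 0.45) and without IRI+Hemin replicate 2 (0.38, adjusted p = 0.0962) or replicate 4 (0.25, adjusted p = 0.171). In IRI+Hemin vs IRI it was 0.32 (adjusted p = 0.109), and passed with normexp (0.42, adjusted p = 0.0299), with no normalization (0.68, adjusted p = 0.00294) and without IRI+Hemin replicate 3 (0.44, adjusted p = 0.0311). In Hemin vs Control it was -0.096 (adjusted p = 0.668), and the scaling gave opposite calls: -0.22 (adjusted p = 0.0413) with quantile normalization and 0.47 (adjusted p = 0.0258) with no normalization. Its spots were not marked as saturated on any array, at signals of 31361 to 67679 units.

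Slc12a1 encodes NKCC2, the target of loop diuretics. Log2 Slc12a1 was 4.98, 4.30, 4.42 and 4.67 in Control, 4.55, 4.47, 4.26 and 4.52 in Hemin, 4.83, 4.83, 4.68 and 4.61 in IRI, 4.69, 4.13, 4.17 and 4.62 in IPC+IRI and 4.40, 4.02, 4.30 and 4.85 in IRI+Hemin. The IRI arrays lay above the Hemin arrays, every other pair of groups overlapped, and the gene was called in none of the comparisons, with a lowest unadjusted limma p of 0.0662. The difference was 0.15 in IRI vs Control (95% interval -0.22 to 0.52, adjusted p = 0.511). The largest ones were -0.35 in IRI+Hemin vs IRI (95% interval -0.72 to 0.026, adjusted p = 0.120) and -0.34 in IPC+IRI vs IRI (adjusted p = 0.130), and both passed with quantile normalization, at -0.46 (adjusted p = 0.0368 and 0.0342). The former was also -0.64 (adjusted p = 0.0148) with the mean of log2 values over probes and -0.50 (adjusted p = 0.0253) without IRI+Hemin replicate 4.

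The probes of Slc12a1 lie 34240 bases apart on mm9 from first to last base, and gave different pictures. One probe, A_52_P26118, was well above background on all 20 arrays, and by its brightness it set the value of the gene. The other, A_51_P442227, was at 5.82 to 30.01 units and above background on 18 arrays. In IRI+Hemin vs IRI the first probe differed by -0.34 (standard error 0.18, adjusted p = 0.120), and the second by -0.94 (standard error 0.27, adjusted p = 0.00860, limma over all probes), a difference between probes that was not tested. Trpm6 also has 2 probes. Its A_52_P184322 was above background on all 20 arrays and A_51_P243073 on none, so that the changes of Trpm6 are those of the first probe, at 0.56 in IRI vs Control and -1.15 in IRI+Hemin vs IRI.

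**Figure D4:**
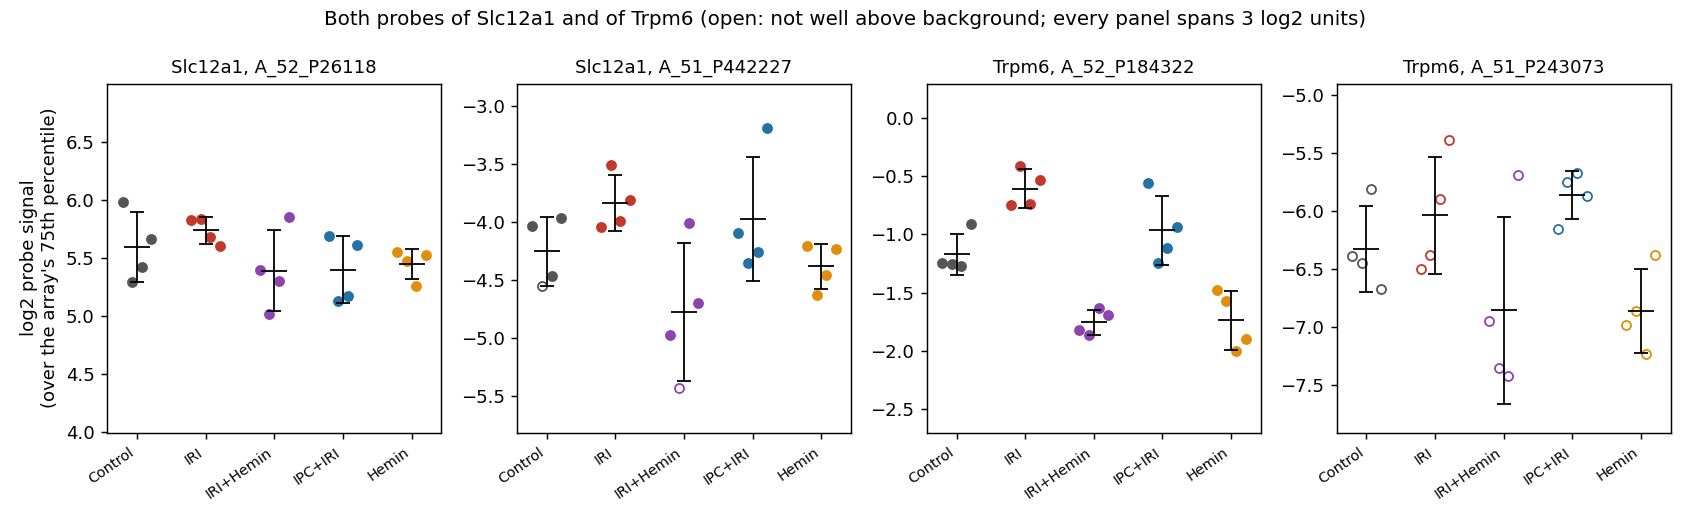
Log2 signal over the 75th percentile of the array (y axis) for both probes of Slc12a1 and both of Trpm6, on the 4 arrays of each group (x axis), with mean and SD as a bar. Open points were not well above background, which holds for 2 arrays of the dim Slc12a1 probe and for all 20 of the dim Trpm6 probe.

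Slc12a3 encodes NCC, the target of thiazides. Log2 Slc12a3 was 2.63, 3.59, 3.34 and 3.06 in Control, 3.17, 3.57, 3.04 and 3.25 in Hemin, 3.40, 3.67, 3.60 and 3.89 in IRI, 4.49, 3.48, 4.02 and 4.02 in IPC+IRI and 3.19, 3.70, 3.36 and 3.64 in IRI+Hemin. The preconditioned kidneys had the 3 highest Slc12a3 values of all arrays, IRI and IRI+Hemin came next in order, and neighbouring groups overlapped. It was 1.80-fold higher in IPC+IRI than in Control, or 0.84 on the log2 scale (standard error 0.21, adjusted p = 0.00259), and this call was kept in 19 alternative fits (1.28 with no normalization) but not where a change of at least 2-fold was also required. The arrays overlapped, and the exact permutation p was 0.0571. In IRI vs Control it was 0.48 (95% interval 0.039 to 0.93, adjusted p = 0.0645), and 0.63 (adjusted p = 0.0223) without Control replicate 2. IPC+IRI and IRI differed by 0.36 (95% interval -0.083 to 0.80, adjusted p = 0.174), or by 0.54 (adjusted p = 0.0441) without IPC+IRI replicate 2 and by 0.68 (adjusted p = 0.0262) with no normalization.

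Trpm6 encodes the magnesium channel of the distal convoluted tubule. Log2 Trpm6 was -2.21, -2.22, -2.21 and -1.88 in Control, -2.45, -2.54, -2.96 and -2.84 in Hemin, -1.72, -1.39, -1.70 and -1.49 in IRI, -1.53, -2.18, -2.06 and -1.89 in IPC+IRI and -2.78, -2.84, -2.61 and -2.61 in IRI+Hemin. Both groups given Hemin lay below all arrays of the other groups, and IRI lay above Control without overlap. The gene rose by 0.56 in IRI vs Control (standard error 0.15, adjusted p = 0.00411), and in IRI+Hemin it was 2.19-fold lower than in IRI, at -1.13 (standard error 0.15, adjusted p = 1.83e-05). Hemin alone was 0.57 lower than Control, at -0.57 (standard error 0.15, adjusted p = 0.00644). IRI+Hemin and Hemin differed by -0.011 (95% interval -0.32 to 0.30, adjusted p = 0.957), and the interaction was -0.57 (adjusted p = 0.107). With normexp correction the rise in IRI was 0.40 (adjusted p = 0.0917) and the fall in Hemin -0.45 (adjusted p = 0.0530), while IRI+Hemin vs IRI was -0.74 (adjusted p = 0.00174). The rise was 0.43 with the mean of log2 values over probes (adjusted p = 0.0528) and 0.14 in the deposited matrix (adjusted p = 0.653), and the fall -0.50 in the matrix (adjusted p = 0.114) and -0.0013 with no normalization (adjusted p = 0.997). In IPC+IRI vs Control it was 0.21 (95% interval -0.094 to 0.52, adjusted p = 0.224), with opposite calls in the deposited matrix (-0.79, adjusted p = 0.00929) and with no normalization (0.65, adjusted p = 0.0400). In IPC+IRI vs IRI it was -0.34 (adjusted p = 0.0653), or -0.47 (adjusted p = 0.0131) without IPC+IRI replicate 1. That comparison also passed in the deposited matrix (-0.93, adjusted p = 0.00426), with normexp (-0.48, adjusted p = 0.0318) and with the percentile over probes above background everywhere (-0.37, adjusted p = 0.0411).

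Pvalb encodes parvalbumin, a calcium-binding protein of the early distal convoluted tubule. Log2 Pvalb was -0.95, -0.44, -0.72 and -1.01 in Control, -0.66, -1.02, -1.81 and -1.23 in Hemin, -1.34, -0.70, -0.85 and -1.41 in IRI, -0.12, -0.63, -0.41 and -0.64 in IPC+IRI and -3.39, -1.89, -2.85 and -2.84 in IRI+Hemin. The IRI+Hemin arrays were below all the others. The means ran from IPC+IRI through Control and IRI to Hemin, with overlap of each neighbouring pair, while IPC+IRI overlapped with neither IRI nor Hemin. In IRI+Hemin it was 3.18-fold lower than in IRI, at -1.67 (standard error 0.28, adjusted p = 1.51e-04), and 2.95-fold lower than in Hemin, at -1.56 (standard error 0.28, adjusted p = 2.51e-04). Neither IRI alone, at -0.29 against Control (95% interval -0.88 to 0.29, adjusted p = 0.394), nor Hemin alone, at -0.40 (95% interval -0.98 to 0.18, adjusted p = 0.274), passed the test. The interaction, -1.27 (standard error 0.39), had an adjusted p of 0.0560, and passed without Hemin replicate 3 (-1.48, adjusted p = 0.0313), without IRI replicate 4 (-1.38, adjusted p = 0.0472) without IRI+Hemin replicate 2 (-1.55, adjusted p = 0.0119), with the stricter filter on dim genes (adjusted p = 0.0496) or with no normalization (-1.47, adjusted p = 0.0392). With normexp, the IRI+Hemin kidneys were at -1.05 against IRI (adjusted p = 4.37e-04) and -0.79 against Hemin (adjusted p = 0.00442). IPC+IRI stood 0.63 above IRI with no overlap of the arrays (22.2% of all genes lay wholly above there), at an adjusted p of 0.0737. It passed with only those groups fitted (0.63, adjusted p = 0.0342), in the deposited matrix (0.76, adjusted p = 0.0310) and with no normalization (0.94, adjusted p = 0.00751).

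The counts of the gene lists that follow are descriptions, to be read against the shares of all genes called in the same comparison, and none is shown to be particular to its list. Of 11 other thick limb genes, all tested, 1 was lower in IRI than in Control, beside 33.9% of all genes: the claudin Cldn10, at -0.76 (adjusted p = 0.00457). The median of the list was -0.022. In IPC+IRI vs IRI, 3 were higher: Cldn10 at 1.46, the sorting receptor Sorl1 at 1.05 and the prostaglandin receptor Ptger3 at 0.92, and 3 were lower: the growth factor Egf at -0.89, Cldn14 at -0.56 and the sodium pump regulator Fxyd2 at -0.28. IRI+Hemin vs IRI also had 3 higher, Sorl1 at 1.18, Cldn10 at 1.06 and Cldn16 at 0.65, and 3 lower, Egf at -0.74, Cldn14 at -0.61 and Fxyd2 at -0.28. Against Control, Hemin had 3 genes higher (Cldn10, Sorl1 and Cldn16) and Egf lower, and IPC+IRI had 3 higher (Sorl1, Cldn10 and Ptger3) and 2 lower (Egf and Cldn14). IRI+Hemin vs Hemin had 2 lower, Cldn10 at -0.70 and Cldn19 at -0.66.

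Of 11 other distal and connecting tubule genes, 3 were lower in IRI than in Control, a share below the 33.9% of all genes: the sodium-calcium exchanger Slc8a1 at -0.93 (adjusted p = 0.00229), Tmem52b (listed as D630042F21Rik) at -0.81 and Cnnm2, a gene of magnesium handling, at -0.40. The calcium channel Trpv5 was higher, at 0.56 (adjusted p = 0.0175). Against IRI, the IRI+Hemin kidneys had 5 lower, Trpv5 at -1.05, Slc8a1 at -1.03, the calcium buffer Calb1 at -0.81, Cnnm2 at -0.71 and Tmem52b at -0.47, and the potassium channel Kcnj10 was higher at 0.52. The median of the list was then -0.38, beside 0.082 over all genes tested. In IPC+IRI vs IRI, Slc8a1 was higher at 0.79, and Trpv5 and the sodium pump subunit Atp1b1 were lower at -0.97 and -0.45. Hemin alone had 3 lower genes, Trpv5 at -0.98, Atp1b1 at -0.58 and Cnnm2 at -0.42, and IPC+IRI vs Control had 1, Tmem52b at -0.99. IRI+Hemin vs Hemin had 4 lower, Slc8a1 at -1.46, Calb1 at -1.04, Tmem52b at -0.98 and Cnnm2 at -0.70, and Trpv5 higher at 0.49.

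**Figure D5:**
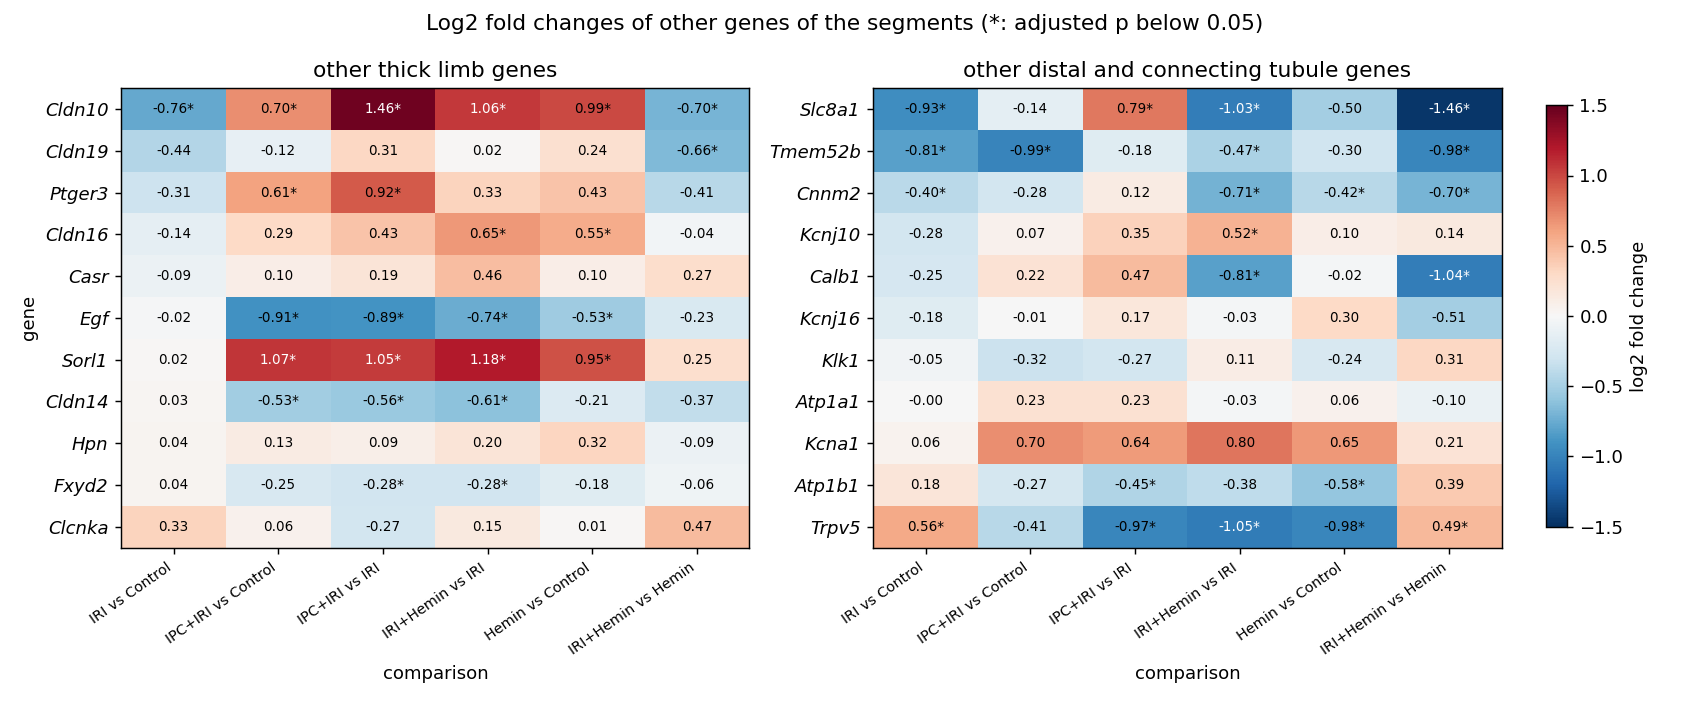
Log2 fold changes of 11 other thick limb genes (left) and 11 other distal and connecting tubule genes (right) in the 6 comparisons of groups, written in each cell and shown by colour, with a star at an adjusted p below 0.05. Cldn10 is lower in IRI vs Control and higher in both treated injury groups than in IRI, and 5 of the distal genes are lower in IRI+Hemin vs IRI.

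Among 12 kinases and adaptors that act on these cotransporters, 4 were lower and 4 higher in IRI than in Control, beside 33.9% and 17.1% of all genes. The lower ones were Klhl3, at -2.21 (adjusted p = 5.08e-07), the mineralocorticoid receptor gene Nr3c2 at -0.997, Wnk4 at -0.80 and Cab39l at -0.46. The higher ones were the aldosterone-induced kinase Sgk1 at 2.18 (adjusted p = 2.50e-04), the ubiquitin ligase Nedd4l at 1.36, Cab39 at 0.44 and Oxsr1 at 0.31. Klhl3, which with cullin 3 targets WNK kinases for breakdown, was also lower in IPC+IRI than in Control, at -1.80. Stk39, which encodes the kinase SPAK that phosphorylates NCC and NKCC2, was higher in IPC+IRI than in IRI at 0.60 and in IRI+Hemin than in IRI at 0.78, and its interaction was 0.85 (adjusted p = 0.00529). Nedd4l and Oxsr1 were lower than in IRI in both, at -0.73 and -0.72 in IPC+IRI and at -0.82 and -0.62 in IRI+Hemin. Cab39 was also higher in IPC+IRI than in IRI, at 0.28, and Wnk1 and Cul3 were lower in IRI+Hemin than in IRI, at -0.41 and -0.37. IPC+IRI vs Control had 3 lower (Klhl3, Nr3c2 and Oxsr1) and 4 higher (Sgk1, Cab39, Nedd4l and Stk39). IRI+Hemin vs Hemin had 3 lower, Klhl3 at -2.06, Nr3c2 and Wnk4, and 5 higher, Sgk1 at 2.73, Nedd4l, Stk39, Oxsr1 and Cab39. In Hemin vs Control, 3 were lower: Nr3c2 at -0.68, Oxsr1 at -0.67 and Wnk1 at -0.35.

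Of 11 transcription factors of these segments, 6 were lower in IRI than in Control, beside 33.9% of all genes, and 1, Pax8, was higher at 1.16. The largest falls were those of Sim1, at -2.36 (adjusted p = 3.23e-06), Emx1 at -1.21, Tfap2b (listed as Tcfap2b) at -1.01 and Pou3f3 at -0.94. Against IRI, IPC+IRI had 2 higher, Sim1 at 2.26 and Emx1, and 2 lower, Pax8 and Pcbd1, while IRI+Hemin had 3 higher, Sim1 at 1.15, Emx1 and Pax2, and 4 lower, Pcbd1, Pax8, Pou3f3 and Esrrg. Pax2 was dim, with means of -4.84 in IRI and -4.34 in IRI+Hemin. It was above background on 0 and 4 arrays, and passed the filter only through the group where it was higher. IPC+IRI vs Control had 4 lower, Pou3f3 at -1.28, Tfap2b, Pcbd1 and Esrrg. Hemin vs Control had 3 lower, Pax8 at -0.81, Tfap2b and Pcbd1, and 2 higher, Sim1 at 1.03 and Irx1. IRI+Hemin vs Hemin had 6 lower, with the largest falls in Sim1 at -2.24, Pou3f3, Emx1 and Pcbd1, and Pax8 higher at 1.16.

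Some markers of other cells and of injury changed in the same kidneys. The log2 mean level of a list is the log2 of the mean of its values before the log2, so that its brightest genes set it. Of 7 tubular injury genes, 6 were higher in IRI than in Control, with a median log2 fold change of 5.06, and the log2 of their mean level was -0.78 to 0.027 in Control, 3.99 to 4.58 in IRI, 3.02 to 4.61 in IRI+Hemin and 1.88 to 3.84 in IPC+IRI. Beside the higher Kcnj1 and Bsnd of the treated injury groups, 2 of the 7 injury genes were lower than in IRI in each of them, with a median of -0.61 in IPC+IRI and -0.55 in IRI+Hemin, and the IPC+IRI arrays of the list lay below all IRI arrays. The brightest of the list were Hmox1, the gene that Hemin induces (6.03 in IRI, 3.96 in IPC+IRI), and Krt20 (5.58 and 4.74). Havcr1 was at 1.34 and 1.60 in these groups, and Vcam1 at -0.25 and -0.28. Of 8 leukocyte genes, 7 were tested and 3 higher (S100a8, S100a9 and Cd68), with a log2 mean level of -1.44 to -0.73 in Control, -0.50 to 0.56 in IRI, -0.17 to 1.03 in IRI+Hemin and 0.48 to 2.27 in IPC+IRI, while Ptprc was at 0.0053 in IRI vs Control. In that comparison S100a8 and the injury gene Krt20, above background on 2 and 1 Control arrays, passed the filter only through IRI. Of 13 proximal tubule genes, 4 were lower in IRI, a share below the 33.9% of all genes, and their log2 mean levels overlapped, at 6.08 to 6.31 in Control and 5.72 to 6.29 in IRI. Among the bright genes that set this level, Kap was at 7.75 in Control and 7.60 in IRI, and Miox at 7.73 and 7.55. The dimmer Slc5a12 was at 1.94 and 0.28, and Lrp2 at 5.47 and 4.52. Of the 13, 7 were lower in IPC+IRI vs Control, where Bsnd was lower (median of the list -0.44), beside 32.7% of all genes, and in IRI+Hemin vs Hemin 6 were (median -0.39) beside 27.9%. Against IRI, 5 were lower and 3 higher in IPC+IRI, and 4 and 3 in IRI+Hemin. The log2 mean level of the principal cell genes was 2.07 to 2.39 in Control and 2.45 to 2.81 in IRI, and that of the intercalated cell genes 2.89 to 3.03 and 2.47 to 2.82. Of 6 podocyte genes, 2 were lower in IRI (median -0.39), and their log2 mean level did not overlap, at -0.17 to 0.24 in Control and -0.58 to -0.43 in IRI. In IPC+IRI vs IRI, where Kcnj1 and Bsnd were higher, 5 of 8 intercalated cell genes were higher and 2 lower (median 0.48), 4 of 7 endothelial genes were lower (median -0.63), and all 3 red blood cell genes tested were lower (median -1.61). The log2 mean level in IRI and IPC+IRI was 2.47 to 2.82 and 2.68 to 3.21 for the intercalated, 1.752 to 2.11 and 0.69 to 2.25 for the endothelial and 4.25 to 4.60 and 1.41 to 3.76 for the red blood cell genes. IPC+IRI replicate 1 stood at the low end of its group for the endothelial (0.69, the others 1.64 to 2.25), red blood cell (1.41, the others 2.43 to 3.76) and tubular injury genes (1.88, the others 3.16 to 3.84), at the high end for the intercalated cell genes, and was the highest IPC+IRI array for each of the 7 genes. Without it, IPC+IRI vs IRI was 1.06 for Kcnj1 (adjusted p = 0.00466) and 0.57 for Bsnd (adjusted p = 0.0214), and Slc12a3 in IPC+IRI vs Control 0.68 (adjusted p = 0.0112). IRI+Hemin replicate 4 was the lowest of its group for the tubular injury genes (3.02, the others 3.63 to 4.61). It was the highest for the proximal tubule genes (6.51, the others 5.65 to 6.05) and for Kcnj1, Bsnd, Umod and Slc12a1. Without IRI+Hemin replicate 4, the calls of Kcnj1 (0.63) and Bsnd (0.47) against IRI were lost. In IRI+Hemin vs IRI, 1 of 8 intercalated cell genes was higher and 2 lower (median -0.14), and 3 of 7 endothelial genes were higher and 1 lower (median 0.16; level 2.01 to 2.39 in IRI+Hemin), where Pvalb and Trpm6 were lower. Their part in the changes of the 7 genes was not tested. Of 3 adrenal cortex genes, 1 in Control and 2 in IRI were above background on no array, and of 6 skeletal muscle genes, 2 and 3. Pvalb is also made in fast muscle fibres. Of the muscle genes tested, 2 of 3 were higher in IPC+IRI than in IRI (Mylpf and Tnnc2, median 0.87) and 2 of 4 in IRI+Hemin than in IRI (Mylpf and Tnnt3, median 0.82), where Pvalb was lower. Tnnt3, above background on 0 of 4 IRI arrays and 3 of 4 IRI+Hemin arrays, passed the filter only through the group where it was higher. The log2 mean level of the list was -4.48 to -4.20 in IRI, -4.12 to -3.33 in IPC+IRI and -3.94 to -3.55 in IRI+Hemin, and its part in the values of Pvalb was not tested.

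Genes whose log2 expression followed that of each of the 7 most closely over the 20 arrays were sought among 14525 genes above background on all of them, and are given with no test, since arrays of a group share a slide. For Pvalb they were Calb1 (r = 0.94), Slc8a1 (0.92) and a transcript named by an Ensembl identifier (0.88). Calb1 was at 4.36 ± 0.29 in IRI+Hemin and between 5.17 and 5.64 in the means of the other groups. For Kcnj1 they were Pstk (0.98), 4933413A10Rik (0.98) and Mrps25 (0.97), and for Bsnd Lig3 (0.97), Dusp9 (0.96) and Kdelc1 (0.96). Umod followed the mitochondrial genes CYTB (0.91) and COX2 (0.90) and the transcript BE368005 (0.90). In IRI+Hemin, unscaled Umod ran from 56010 to 67679 units. Its log2 expression there was 8.33 on the array with the lowest 75th percentile (174 units) and 7.52 on that with the highest (358). The part of the scaling shared by all genes of an array in these r was not tested. Trpm6 followed Ssr3 (0.92), Pkm2 (0.91) and Insig1 (0.90). Slc12a1, with Cpt1b (0.87), Gpm6a (0.84) and C8g (0.80), and Slc12a3, with Npal2 (0.83), TC1658167 (0.83) and Picalm (0.82), had less close neighbours.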

How the data were processed

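RNA of 20 kidneys was measured on Agilent whole mouse genome arrays (Cy3). The authors deposited the intensity of each spot. Feature Extraction, 9.5.3.1 per the file headers, subtracted the background of each spot from linked scans at high and low sensitivity, with no step between arrays. The deposited log2 matrix holds the log2 of the same signal, with 18.1% of its values blank, and served as an alternative. Flagged uneven and outlier spots were removed, signals were scaled to the 75th percentile of their array, and probes with a shared gene name were averaged before the log2. A gene was tested with at most 1 missing value and at least 3 of 4 arrays well above background in a group compared. limma 3.58.1 (R 4.3.3, data.table version 1.17.8) was fitted to all 20 arrays (5 group means, 15 residual degrees of freedom), with Benjamini-Hochberg adjustment in each comparison, and was tested on simulated data. The arrays' number limits precision. The 7 genes and the gene lists were chosen with earlier results of these data known. Named are all 7 genes, the called genes of each tubular list with the largest changes (at most 4 a comparison, or every gene of a count of 5 or fewer; markers of other cells mostly as counts), and the 3 genes that follow each of the 7 most closely. Alternatives were other background corrections, scalings, probe summaries, filters and designs, and each array left out. Some genes of these lists are not reported here, and the counts leave them out.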

Additional observations from a re-analysis of the deposited data

Results flagged for a closer look

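In Control, 2 of the 35 sets of 4 arrays (7 genes in 5 groups) had an array far from the other 3, where chance gives about 1 in 20. Control replicate 2 had a Kcnj1 log2 expression of 6.02, against 5.30 to 5.41 on the other Control arrays. Control replicate 4 had a Trpm6 log2 expression of -1.88, against -2.22 to -2.21 on the others. Without Control replicate 2, Kcnj1 in IRI vs Control was -1.46 (adjusted p = 5.40e-04), and without Control replicate 4, Trpm6 in IRI vs Control was 0.64 (adjusted p = 0.00266).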

How the results depend on the processing

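Of the 16 calls made for the 7 genes, 9 were kept under every alternative fit, and no called value changed its sign. Of those 9, Slc12a3 in IPC+IRI vs Control (0.84) was lost when a change of at least 2-fold was also required. Of 977 values recomputed, 879 kept their direction and side of the threshold, 25 lost a call, 33 gained one and 40 changed sign, all 40 among results that were not called. Why they changed was not tested. Slide as a random block was not run, since no slide held more than 1 group and no group spanned slides. Of the 49 fold changes, 10 could not be had from the deposited matrix, where Umod was blank on 16 of the 20 arrays and Kcnj1 and the bright Slc12a1 probe on 4 each.

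Signs changed as follows. With no normalization between arrays, Hemin vs Control was 0.17 for Pvalb, 0.43 for Slc12a1 and 0.47 for Umod (adjusted p = 0.0258, a call), IPC+IRI vs Control 0.11 for Kcnj1 and 0.25 for Slc12a1, IRI vs Control 0.11 for Umod, and IRI+Hemin vs IRI 0.019 for Slc12a1 and 0.20 for Slc12a3. That setting moved the median of all genes in Hemin vs Control from 0.057 to 0.62, and Trpm6 there to -0.0013 (adjusted p = 0.997). With the 75th percentile over probes above background everywhere, Slc12a3 in Hemin vs Control was -0.014 and Umod in IPC+IRI vs Control -0.027. With quantile normalization, Slc12a3 in Hemin vs Control was -0.056, Umod -0.14 in IPC+IRI vs Control and -0.11 in IPC+IRI vs IRI, and Trpm6 in IRI+Hemin vs Hemin 0.051. With normexp, Trpm6 was -0.074 in IPC+IRI vs Control and 0.11 in IRI+Hemin vs Hemin, Slc12a3 0.077 in IRI+Hemin vs IRI, and Bsnd -0.14 in the interaction. With the mean of log2 values over probes, Slc12a1 in IPC+IRI vs Control was 0.045. In the deposited matrix, Trpm6 in IPC+IRI vs Control was -0.79 (adjusted p = 0.00929, a call), Slc12a3 in IRI+Hemin vs IRI 0.033, and Slc12a1 -6.53 in IRI vs Control (adjusted p = 0.00596, a call), 4.10 in IPC+IRI vs IRI, 6.60 in IRI+Hemin vs IRI (adjusted p = 0.00685, a call), 0.13 in IRI+Hemin vs Hemin and 6.67 in the interaction. Where the bright Slc12a1 probe is blank there, the value of the gene is that of the dim one.

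With 1 array left out, values near 0 changed sign. For Slc12a3 the lowest and highest were -0.072 and 0.25 in Hemin vs Control. For Umod the lowest and highest were -0.019 and 0.14 in IPC+IRI vs Control, -0.0047 and 0.17 in IPC+IRI vs IRI, and -0.099 and 0.072 in IRI vs Control. For Slc12a1 the lowest and highest were -0.21 and 0.065 in IRI+Hemin vs Hemin. For Trpm6 the lowest and highest were -0.10 and 0.072 in IRI+Hemin vs Hemin. For Kcnj1 the lowest and highest were -0.0081 and 0.48 in the interaction.

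Counts of the 7 genes called moved too. At least 2-fold, the higher count was 0 in both comparisons of injured kidneys with Control, 0 in IRI+Hemin against either IRI or Hemin, and 1 in IPC+IRI vs IRI, and the lower count 0 in Hemin vs Control. With normexp, the higher count was 0 in IRI vs Control and IRI+Hemin vs Hemin and 1 in IPC+IRI vs IRI and Hemin vs Control, and the lower count 1 in IPC+IRI vs IRI and 0 in Hemin vs Control. With no normalization, the higher count was 4 in Hemin vs Control and in IPC+IRI against either Control or IRI, and 0 in IRI+Hemin vs Hemin, and the lower count 0 in Hemin vs Control and IPC+IRI vs Control and 1 in the interaction. In the deposited matrix, the higher count was 0 in IRI vs Control and IRI+Hemin vs Hemin, and the lower count 0 in Hemin vs Control, 2 in IPC+IRI vs Control and 1 in IPC+IRI vs IRI. The higher count was 0 in IRI vs Control with the mean of log2 values, and 0 in IRI+Hemin vs Hemin with the mean of log2 values, the brightest probe, no filter, or only the arrays compared, which gave 2 in Hemin vs Control. The lower count in IPC+IRI vs IRI was 1 with quantile normalization and with the percentile over probes above background everywhere, that in Hemin vs Control 2 with quantile normalization, and that of the interaction 1 with the stricter filter. With 1 array left out, the higher count ran from 1 to 2 in IRI vs Control, 0 to 1 in Hemin vs Control, 0 to 3 in IRI+Hemin vs IRI, 2 to 3 in IPC+IRI vs IRI and 0 to 1 in IRI+Hemin vs Hemin, and the lower count from 0 to 1 in IPC+IRI vs IRI and in the interaction and from 2 to 3 in IRI+Hemin vs IRI. Smaller moves were a lower count of 3 in IRI+Hemin vs IRI with quantile normalization and with the mean of log2 values, a higher count of 3 there with no normalization and in the deposited matrix, and a higher count of 3 in IPC+IRI vs IRI in that matrix and with only the arrays compared. The matrix also gave a lower count of 3 in IRI vs Control and of 2 in IRI+Hemin vs Hemin.

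Over all genes in IRI vs Control, 1397 were lower and 1789 higher with normexp, against 6003 and 3022 in the values reported, so that the balance turned. With the replicate number as a block, 48 of the 49 fold changes kept their call, and Umod in IRI+Hemin vs Hemin lost it (0.40, adjusted p = 0.0677), which left a higher count of 0. Same-numbered arrays share only a number: the mean correlation of their deviations ran from -0.164 to 0.109 over the comparisons. Among the probes above background on every array, the dimmest signals, 24.2 units for Pvalb in IRI+Hemin and 35.5 for Bsnd in IRI, lie below the offset of 50 that normexp adds.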
